A study of Mus musculus with 18 samples.

Results

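Nuclear RNA of BV2 cells after 12 h with 10 µM oxyhemoglobin was compared with nuclear RNA of untreated BV2 cells, gene by gene. BV2 is an immortalised mouse microglial cell line, and oxyhemoglobin is the oxygen-carrying form of the blood pigment that red cells release after a bleed. A gene was compared where its mean count reached 10 in either of the 2 nuclear groups, and 16940 of the 55487 genes in the count table met this rule. Each group held 3 libraries, of which the deposited count table gives the mean, so no spread between libraries and no p-value can be given. The study also held a nuclear group at 24 h and cytoplasmic groups at 0, 12 and 24 h, each with 3 libraries. All groups came from the same line, grown in medium with serum, and nuclei were pelleted from cells lysed in a mild detergent. No untreated group was taken at 12 h, so treatment and time in culture cannot be told apart. A single cell line also limits the groups as a model of microglia, the resident macrophages of the brain. The question was which RNAs differ in the nucleus, where they are made and processed, after 12 h of exposure.

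Hemoglobin outside red cells oxidises and gives up heme, which macrophages take up and break down into iron, carbon monoxide and biliverdin. Heme can also act as a danger signal through TLR4, whose signalling frees NF-kB, a family of transcription factors that switch on cytokine genes. Oxidative stress releases NRF2, which switches on genes of glutathione and thioredoxin metabolism. Nuclear RNA holds newly made and partly spliced transcripts together with RNAs that stay in the nucleus. Its level depends on synthesis, processing, export and decay at once, and these cannot be told apart here. In a bulk sample, a change in the share of cells that express a gene and a change in RNA per cell cannot be told apart either.

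Summed over the 3 libraries, 14652566 counts stood behind the 0 h group and 15899566 behind the 12 h group. Levels are given as counts per 1000000 (CPM) after scaling by the trimmed mean of M-values within the nuclear groups. A gene given as from one CPM value to another was measured at the former at 0 h and at the latter at 12 h, and a lone number in brackets after a gene is its log2 ratio of 12 h over 0 h. The unnamed gene ENSMUSG00000118642 took 18.6% of the nuclear counts at 0 h and 16.3% at 12 h. Of 15 microglia and macrophage markers 13 were compared, with a summed level of 3143 CPM at 0 h and 3348 at 12 h, and Aif1 and C1qa were under the filter. Lyz2, the macrophage lysozyme, had 1869 CPM at 0 h and 1697 at 12 h, and Ptprc, the CD45 of all leukocytes, 531 and 352. The microglial adaptor Tyrobp was at 2.73 and 0.584 CPM. Few markers of other cells passed the filter: 3 of 15 for astrocytes, neurons and oligodendrocytes, 2 of 12 for endothelial cells and fibroblasts, 1 of 11 for erythroid cells and 2 of 16 for other leukocytes. The brain-cell markers summed to 15.3 CPM at 0 h and 18.0 at 12 h. Just inside the filter, 237 genes with a higher mean count of 10 to 10.33 had log2 ratios from −3.81 to 4.01 (median −0.11). Just outside it, 146 genes with 9.67 ran, where both groups had reads, from −3.76 to 4.96 (median −0.17).

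Genes were called where the level differed at least 2-fold between 0 h and 12 h and the exact 95% counting interval of the log2 ratio excluded 0. The interval rests on the summed reads and covers counting error only, not differences between cultures. By this rule 1332 genes were higher at 12 h, 7.86% of those compared, and 1095 were lower, 6.46%. The remaining 14513 were not called, and 65.9% of all genes lay within 1.5-fold. The larger differences were mostly increases: 288 genes were at least 4-fold higher and 161 at least 4-fold lower, and at 16-fold the numbers were 45 and 7. The higher genes together went from 39887 to 117913 CPM, and the lower genes from 14103 to 5291. Among protein-coding genes with a mean of both levels above 500 CPM, 21 of 106 were called higher and none lower, whereas at or below 5 CPM 178 were higher and 290 lower of 1913. Of all calls 54.9% were higher. With scaling by total counts the log2 ratios of all genes fell by 0.22, so that their median was −0.21 and 32.2% of the calls were higher, and scaling by the upper quartile gave a median of −0.11 and 42.8%. A gene called higher at a log2 ratio under about 1.2 therefore fell under 2-fold with total-count scaling. The number of genes called lower was 1779 with that scaling, beside 1095. No call turned its direction. Where that scaling moves the count of a list by over 1.5 times, its numbers of higher and lower members are given beside the count. Genes that share 20% or more of their exonic bases with another gene are marked as uncertain, since their reads may not be told apart; they were 8.38% of the genes compared.

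**Figure D1:**
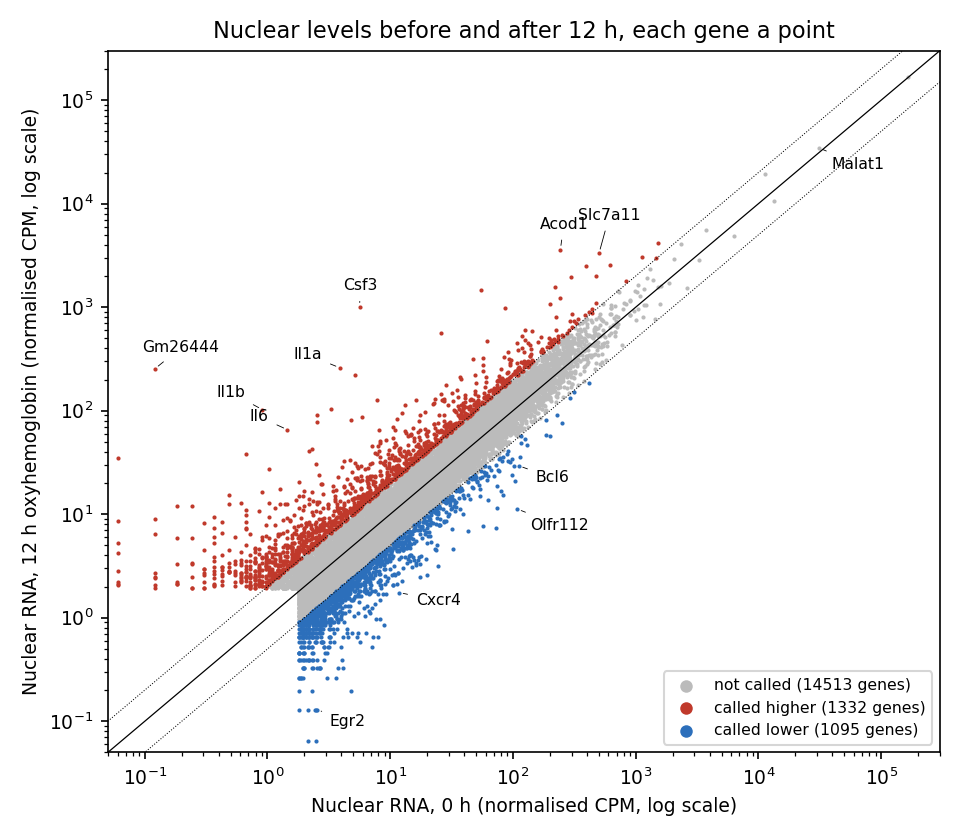
Each point is a gene, with its nuclear level at 0 h on the horizontal and at 12 h on the vertical axis, both in normalised CPM on log scales (values under 0.06 are drawn at 0.06). The solid line marks equal levels and the dotted lines 2-fold differences; the 1332 genes called higher include Csf3 at 1011 CPM after 12 h, and the 1095 called lower include Olfr112 at 11.2.

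All 5 compared ligands of the interleukin-1 family were called higher, with a median log2 ratio of 6.07 beside 0.00 over all genes. The other 5 of the 10 listed were below the filter. Il1b, Il1f9 and Il18 passed it only through their 12 h counts, so this share and median follow in large part from the filter. Il1b, which encodes the pyrogenic cytokine interleukin-1 beta (chromosome 2, 129364570 to 129371139 in GRCm38), had 0.909 CPM at 0 h and 102 at 12 h, 113-fold more (log2 ratio 6.82, interval 6.09 to 7.66). Il1a, for interleukin-1 alpha, went from 3.88 to 259.9 CPM (log2 ratio 6.07). The receptor antagonist Il1rn, which blocks both of them, was higher too, at 13.1 and 114 CPM (3.12). Il1f9, the mouse interleukin-36 gamma, rested on 0.0606 CPM at 0 h, so its log2 ratio of 7.15 had an interval from 4.65 to 12.47. In the interleukin-6 and interleukin-12 families 4 of 6 ligands were called higher and none lower. They were Il6 (1.45 to 65.5 CPM, 5.49), Il23a (1.64 to 7.52 CPM), oncostatin M (Osm, 34.9 to 158 CPM) and Ebi3 (1.66, uncertain). Of these, Il6 and Il23a passed the filter only through their 12 h counts. Colony-stimulating factors did not move as one. Csf3, which drives the production of neutrophils, had 5.63 CPM at 0 h and 1011 at 12 h. Csf2 had 0.363 and 3.50 CPM and passed the filter only through its 12 h count. Csf1, on which microglia depend for survival, was called lower, from 52.6 to 19.3 CPM (log2 ratio −1.45, interval −1.64 to −1.25).

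Of 9 CC chemokines compared, 6 were called higher and 1 lower, with a median log2 ratio of 2.06. Ccl7 and Ccl2, neighbouring genes whose products attract monocytes, went from 54.7 to 1457 CPM and from 12.5 to 95.1 CPM. Ccl3 and Ccl4, attractants of monocytes and T cells, stood at 615 and 2568 CPM and 293 and 736 CPM. The log2 ratio of Ccl5 was 2.82 and that of Ccl9 2.17, while Ccl28, the lower one, had 2.06 and 0.649 CPM. Among CXC chemokines 14 of 17 were below the filter. Cxcl2, a neutrophil attractant, was 26.0-fold higher (0.485 to 12.6 CPM), and Cxcl10 6.42-fold (0.969 to 6.23 CPM). Both passed the filter only through their 12 h counts. TNF superfamily ligands had 4 of 9 members higher and none lower (4 and 1 with total counts). They were led by lymphotoxin alpha (Lta, 0.485 to 15.4 CPM, log2 ratio 4.99) and Tnf (4.06 to 28.3 CPM, 2.80). Lta passed the filter only through its 12 h count. Of 18 growth and angiogenic factors 4 were higher and 2 lower: the vasoconstrictor endothelin 1 (Edn1) was at 4.32, the stress-induced Gdf15 at 3.01, the neurotrophic Gdnf at 2.15 (11.0 to 48.8 CPM), and the growth factor Igf1 at −1.57 (77.7 to 26.1 CPM).

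Receptor genes were called in both directions. Tlr4, the receptor through which heme can signal, had 156 CPM at 0 h and 153 at 12 h and was not called, with a log2 ratio of −0.02 (interval −0.10 to 0.06). Its co-receptor Cd14 was called higher (109 to 448 CPM, 2.04), as was Tlr9, a sensor of DNA (1.81). In all 4 of 24 pattern recognition receptors were higher and 1 lower. The formyl peptide receptor gene Fpr1 had no read at 0 h and 2.85 CPM at 12 h, at least 15.7-fold higher when 0 h is set to 3 reads in all. The TNF receptor superfamily had 4 of 17 members higher and 2 lower (2 and 3 with total counts). Tnfrsf1b, the second TNF receptor, gained the most, from 221 to 1564 CPM (interval 2.77 to 2.87), and Tnfrsf8 went from 0.242 to 12.1 CPM. The lower members were Tnfrsf14 (7.09 to 1.82 CPM) and Tnfrsf9 (−1.57). Ltb4r1, the receptor of the neutrophil attractant leukotriene B4, was at 0.121 and 6.42 CPM. Purinergic and adenosine genes had 3 of 14 higher, Adora2a (3.30), Adora2b (1.49) and P2ry2 (1.51), and 2 lower. Chemokine receptors had 3 of 9 higher and 2 lower. Cxcr4, the receptor of CXCL12, went from 11.8 to 1.75 CPM (−2.75, interval −3.39 to −2.17), and Cx3cr1, the neuronal fractalkine receptor of microglia, from 5.21 to 1.62 CPM (−1.68).

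Within NF-kB signalling, 2 of 5 subunit genes were called higher (1 with total counts): Nfkb1 (76.1 to 194 CPM, 1.35) and Nfkb2 (1.08). Rel and Rela were at 0.71 and 0.73, under 2-fold. Inhibitors and ubiquitin-editing enzymes, which end the response, had 3 of 18 members higher and 1, Trib2, lower. The higher ones were Nfkbia, which holds NF-kB in the cytoplasm (31.9 to 147 CPM, 2.21), the atypical inhibitor Bcl3 (1.39 to 12.6 CPM, 3.18) and Tnfaip3, or A20 (12.1 to 39.0 CPM, 1.69). Adaptors and kinases of the Toll-like and TNF pathways had 4 of 34 higher and none lower (3 and 1 with total counts), led by Traf1 (2.18). Suppressors of cytokine signalling and STATs had 4 of 19 higher (2 with total counts), with Socs3 from 47.1 to 317 CPM and Cish at 2.46. Zc3h12a, the endonuclease Regnase-1 that degrades cytokine mRNAs, went from 32.4 to 123 CPM (1.92). Of the 28 genes of inflammatory mRNA decay, 2 were called higher and 1 lower (1 and 4 with total counts).

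Promoters of the strongest of these genes were searched for the letters of an NF-kB site, GGGNN directly followed by TTTCC, on both strands. Sequences are from RefSeq on GRCm38.p6 and cover 250 bases before to 50 bases after each annotated start. Of 9459 compared genes with a promoter there, 1.99% held the letters, as did 1.89% of all 27025 promoters. The share was 3.51% among genes called higher (23 of 655), 2.41% among genes called lower (12 of 498) and 8.47% among those at least 4-fold higher (10 of 118). The 9 such protein-coding genes with the letters upstream of the start and no large exon overlap are shown, as stretches of 60 bases, 5′ to 3′ on the gene's strand, with the matching letters in capitals. A match describes the letters and not binding.
Il6, chr5:30013045-30013104, plus strand: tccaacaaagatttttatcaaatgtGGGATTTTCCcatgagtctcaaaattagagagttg
Cxcl2, chr5:90903796-90903855, plus strand: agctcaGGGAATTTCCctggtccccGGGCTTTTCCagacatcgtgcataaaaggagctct
Il1rn, chr2:24345295-24345354, plus strand: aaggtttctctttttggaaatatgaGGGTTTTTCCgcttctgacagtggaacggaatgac
Serpina3g, chr12:104236037-104236096, plus strand: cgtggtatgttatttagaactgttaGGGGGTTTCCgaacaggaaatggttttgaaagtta
Samd15, chr12:87200433-87200492, plus strand: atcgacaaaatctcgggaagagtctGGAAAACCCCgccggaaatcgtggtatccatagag
Cpd, chr11:76847096-76847155, minus strand: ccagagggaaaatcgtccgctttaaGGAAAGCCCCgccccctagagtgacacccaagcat
Nfkbia, chr12:55492648-55492707, minus strand: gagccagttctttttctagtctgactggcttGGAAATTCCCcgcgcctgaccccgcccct
Ccl9, chr11:83578637-83578696, minus strand: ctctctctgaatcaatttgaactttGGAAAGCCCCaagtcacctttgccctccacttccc
Iffo2, chr4:139530435-139530494, plus strand: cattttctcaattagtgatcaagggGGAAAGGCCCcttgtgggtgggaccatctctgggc
The 2 cytokine promoters with the largest log2 ratios in this set, Il6 (5.49) and Cxcl2 (4.70), carried the nearest match from 44 and 78 bases before the start, and Cxcl2 carried 2 of them. Il1rn, Ccl9 and Nfkbia are described above. Cpd, a carboxypeptidase, went from 390.0 to 2490.2 CPM (2.67), and Serpina3g, a protease inhibitor, from 0.363 to 2.40 CPM. No match in such a window says nothing about the factor, and the window of Il1b held none.

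The AP-1 letters TGANTCA, which read the same on both strands, were in 6.51% of the compared promoters, 11.8% of those called higher, 8.43% of those called lower and 20.3% of those at least 4-fold higher. The genes of AP-1, EGR and NR4A factors themselves went both ways, with 6 of 26 higher and 3 lower. Fosl1 was at 2.72 (uncertain), Fosl2 at 1.41 (73.6 to 195 CPM), Junb at 1.31 and the early-response gene Ier3 at 2.44 (199 to 1085 CPM). Egr2 and Egr3, transcription factors of growth signalling, were lower, with 2.54 and 0.13 CPM and with 4.00 and 0.519 CPM. Of the C/EBP, interferon regulatory and lineage factors 6 of 31 were higher, including Cebpd (38.9 to 105 CPM) and Spi1, or PU.1 (1.14), and 2 were lower (3 and 3 with total counts). Mef2c, a factor of microglial identity, was one of these, from 185 to 58.9 CPM (−1.65, interval −1.76 to −1.55). Bcl6, a repressor that opposes NF-kB at many inflammatory genes, went from 112 to 29.4 CPM (−1.93). Among Krüppel-like, forkhead and nuclear receptor factors 4 of 41 were higher and 2 lower (2 and 5 with total counts), close to the shares of 7.86% and 6.46% over all genes. The lower ones were Klf2 (−1.33) and Klf11 (−1.44).

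Acod1, which makes itaconate from the citric acid cycle, went from 243 to 3605 CPM (3.89, interval 3.84 to 3.94). Ptgs2, the inducible cyclooxygenase, and Ptges, which completes prostaglandin E2, went from 86.0 to 990.2 CPM and from 17.1 to 79.3 CPM. Nos2, the inducible nitric oxide synthase, was at 7.09 and 45.9 CPM, whereas Nos1 (−1.57) and Arg1 (−1.01), which competes for the same substrate, were lower. Odc1, the first enzyme of polyamine synthesis, and Srm, the next, were at 2.17 and 1.84. In the list of arginine, nitric oxide, polyamine and itaconate enzymes 6 of 23 were called higher and 2 lower (median 0.04), and in that of prostaglandin and leukotriene genes 3 of 22 higher and 2 lower (median 0.24, and −0.05 with TPM). Of the matrix proteases and inhibitors, 5 of 19 were higher and 1 lower (5 and 2 with total counts), with the collagenase Mmp13 from 7.75 to 126 CPM (4.02). Acute-phase and antimicrobial proteins had 6 of 13 higher, led by the iron-scavenging lipocalin Lcn2 (2.54 to 90.2 CPM, 5.15), and 3 lower. The superoxide group had 5 of 12 higher and 1 lower, with mitochondrial Sod2 from 44.5 to 126 CPM, catalase (Cat) from 38.9 to 118 CPM and the small GTPase Rac2 at 1.42.

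**Figure D2:**
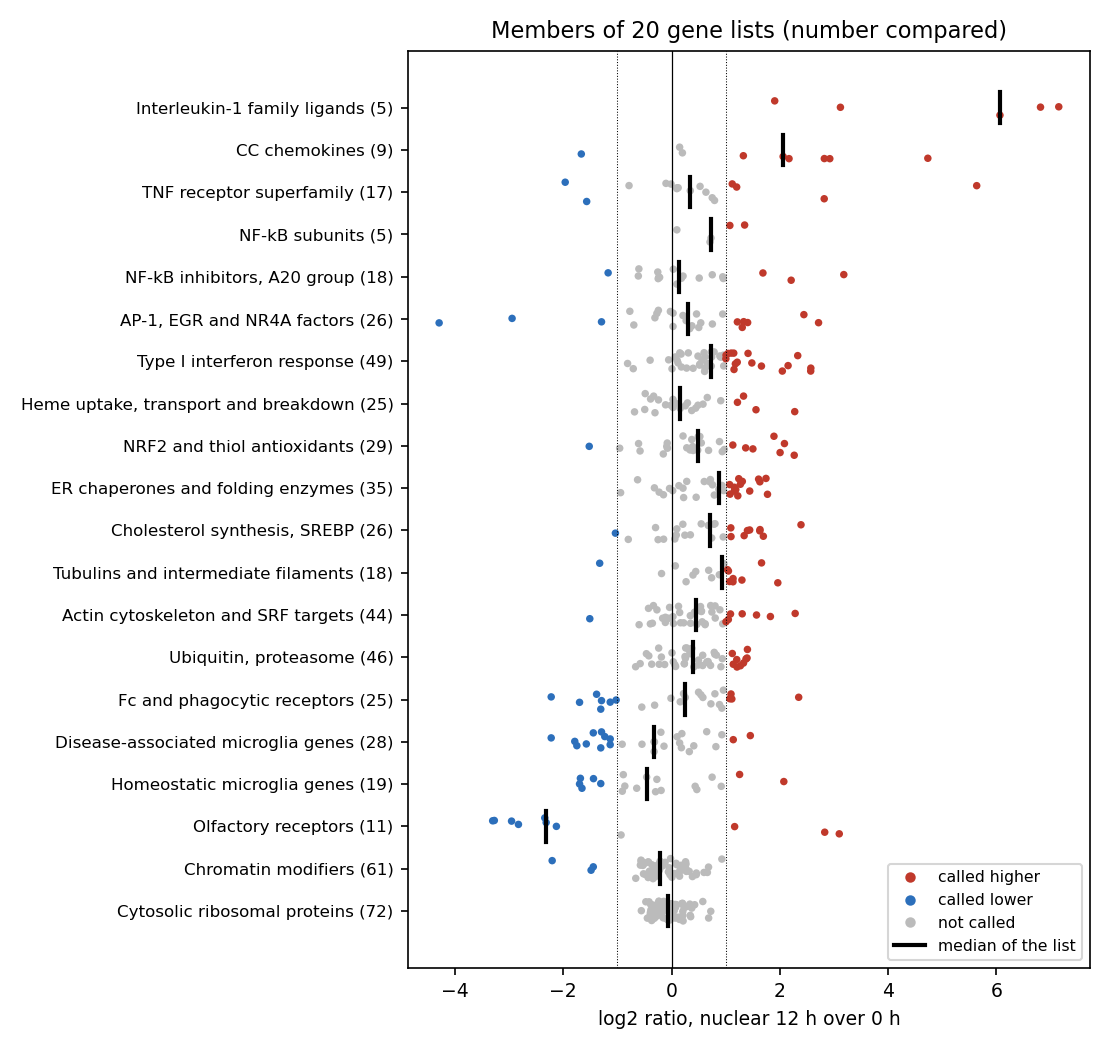
Log2 ratios of nuclear 12 h over 0 h for the compared members of 20 gene lists, 1 point per gene, with the number of members in brackets, the list median as a black bar and dotted lines at 2-fold. The interleukin-1 ligands lie furthest to the right with a median of 6.07, and the olfactory receptors furthest to the left with a median of −2.32.

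Heme genes differed at a few named points and not as a whole list, while the iron list had a median above that of all genes. Of 25 genes of heme uptake, transport and breakdown 4 were called higher and 0 lower, and the median log2 ratio was 0.16, which was −0.06 under total-count scaling. Hmox1, the heme oxygenase that opens the heme ring, had 125 CPM at 0 h and 605 at 12 h, 4.84-fold more. Blvrb, a biliverdin reductase, was at 1.33 (6.78 to 17.1 CPM), the heme transporter Slc48a1 at 1.56 and haptoglobin (Hp), which binds free hemoglobin, at 1.22 (5.63 to 13.1 CPM). Bach1, the heme-sensing repressor of Hmox1, was at 92.5 and 97.4 CPM and Nfe2l2, which encodes NRF2, at 263 and 345, both under 2-fold. Lrp1, a receptor for heme bound to hemopexin, was at −0.01. The median log2 ratio of 20 iron genes was 0.42, or 0.21 with total counts and 0.11 with the deposited TPM. Of these genes 5 were higher and none lower, but 2 were higher and 1 lower with total counts and 1 higher with TPM. Beside Lcn2 they were the iron transporters Slc11a2 (69.5 to 164 CPM), Slc11a1 (1.02) and Slc39a14 (1.05) and the iron chaperone Pcbp1 (195 to 452 CPM), of which Slc11a1, Slc39a14 and Pcbp1 lay under 2-fold with total counts. The ferritin heavy chain Fth1 (0.57) and the iron exporter Slc40a1 (−0.51) were not called.

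NRF2 regulators and thiol antioxidant enzymes had 7 of 29 members higher and 1 lower (6 and 2 with total counts), with a median of 0.48. The 2 enzymes of the pentose phosphate pathway that make NADPH, G6pdx (56.7 to 241 CPM) and Pgd (301 to 852 CPM), were both higher. So were Srxn1, which repairs oxidised peroxiredoxins (57.1 to 275 CPM), Prdx1, a peroxiredoxin (197 to 508 CPM), and Nqo1, which had only 0.909 and 3.37 CPM. Txnip, an inhibitor of thioredoxin, was the lower one, from 97.9 to 34.1 CPM (−1.52). Cystine import and glutathione genes had 3 of 21 higher and 3 lower. Slc7a11, which imports cystine, went from 503 to 3328 CPM, glutathione reductase (Gsr) from 59.0 to 169 CPM and Gclm, a subunit of the enzyme that starts glutathione synthesis, from 13.6 to 37.1 CPM. The transferases Mgst3 (−1.62), Gsto1 (−1.15) and Gstm1 (−1.29) were lower. The letters of the antioxidant response element, TGACNNNGC on either strand, were in 16.7% of compared promoters and in 16.9% of those called higher, so their share did not stand apart. They can overlap the AP-1 letters, and 420 promoters in the RefSeq table held both. Of 14 called genes from these 3 lists, 3 held them upstream of the start, and these are shown with the match in capitals.
G6pdx, chrX:74428904-74428963, minus strand: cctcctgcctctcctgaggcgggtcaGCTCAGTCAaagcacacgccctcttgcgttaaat
Gclm, chr3:122245397-122245456, plus strand: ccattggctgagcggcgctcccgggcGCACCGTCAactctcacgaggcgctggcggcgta
Prdx1, chr4:116685440-116685499, plus strand: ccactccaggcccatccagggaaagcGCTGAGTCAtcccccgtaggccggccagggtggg
The match of Prdx1 contains the AP-1 letters as well.

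Of 35 ER chaperones and folding enzymes 14 were called higher and 0 lower (median log2 ratio 0.87), against 9 and 1 with total counts, 12 and 1 with the upper quartile and 4 and 0 with TPM. The disulfide isomerases Pdia4 (119 to 405 CPM), Pdia3 (94.6 to 289 CPM), P4hb (314 to 733 CPM) and Pdia6 (16.8 to 39.8 CPM) were among them. So were Creld2 (1.74), the co-chaperones Sdf2l1 (1.63) and Dnajb11 (1.31) and the chaperone Hyou1 (1.27). Hspa5, or BiP, the most general of these chaperones, was not called at 57.5 and 87.5 CPM (0.60). Of 31 factors of the unfolded protein and integrated stress responses only Cebpb (uncertain) and Atf3 were called, both higher (2 higher and 1 lower with total counts), with Xbp1 at 0.35 and Atf6 at −0.02. The ER stress element, CCAAT and CCACG with 9 bases between them on either strand, was in 0.137% of all promoters and 0.169% of the compared ones. It was in 0.611% of those called higher (4 of 655), 0.201% of those called lower and 0 of 118 at least 4-fold higher. Among the 14 higher chaperone genes, 3 held it upstream of the start. The list consists of known ER folding genes, so this last share is not independent of how the list was made.
Creld2, chr15:88819499-88819558, plus strand: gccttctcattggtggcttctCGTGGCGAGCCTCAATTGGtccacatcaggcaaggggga
Pdia6, chr12:17266470-17266529, plus strand: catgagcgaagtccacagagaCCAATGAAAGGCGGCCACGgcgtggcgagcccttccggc
Calr, chr8:84847055-84847114, minus strand: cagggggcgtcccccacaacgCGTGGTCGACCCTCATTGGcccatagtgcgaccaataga
Calr, the lectin chaperone calreticulin, was at 1.16 (234 to 523 CPM). Of 46 ubiquitin, proteasome and autophagy genes 9 were higher in nuclear RNA and none lower (5 higher with total counts). All were proteasome subunits apart from Ubb: Psmd7 went from 75.0 to 197 CPM and Psmb5 from 22.7 to 59.9 CPM. Heat shock proteins had 4 of 25 higher and none lower (1 higher with total counts), with the co-chaperone Bag3 from 45.1 to 110.2 CPM.

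Of 26 cholesterol synthesis and SREBP genes 9 were called higher and 1, Fdft1, lower (7 and 2 with total counts), with a median of 0.71. Hsd17b7 (4.91 to 25.7 CPM, 2.39) and lanosterol synthase (Lss, 22.9 to 74.2 CPM) led the group. The letters of a sterol regulatory element, TCACNCCAC on either strand, were in 1.38% of compared promoters. They were in 1.07% of those called higher (7 of 655), 1.81% of those called lower and 0 of 118 at least 4-fold higher. The list of liver X receptors and cholesterol efflux had no member higher and 3 of 14 lower, with a median of −0.05. Its lower members were the oxysterol receptor Gpr183 (114 to 36 CPM, −1.66), the ubiquitin ligase Mylip (−1.36), and Apoe (18.4 to 8.37 CPM). Fatty acid genes had 3 of 28 higher and 1 lower (0 and 3 with total counts), and sphingolipid genes 2 of 27 higher and 2 lower (2 and 4). Abca6 and Abcd2, lipid transporters of the ABC family, were lower, from 42.6 to 6.87 CPM and from 83.7 to 15.5 CPM.

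In the type I interferon list 16 of 49 members were higher and 0 lower (median 0.73), against 8 and 1 with total counts and 7 and 0 with TPM. Isg15, a ubiquitin-like modifier, went from 10.9 to 64.8 CPM (2.57, interval 2.34 to 2.81), and Ifit1, which binds foreign RNA, from 10.7 to 44.3 CPM. Interferon-induced GTPases went both ways, 3 of 11 higher and 2 lower, with Gbp2 from 3.63 to 17.3 CPM and Gbp8 from 6.78 to 1.75 CPM. The letters of an interferon response element, GAAANN directly followed by GAAA on either strand, were in 3.83% of compared promoters, 8.24% of those called higher and 3.21% of those called lower. Of 18 higher genes of these 2 lists without large exon overlap 13 held them upstream of the start. The lists consist of genes known to respond to interferon, so this share is not independent of how they were made. The match is shown in capitals for 5 of them, 2 small modifiers or RNA binders and 3 GTPases.
Isg15, chr4:156200850-156200909, minus strand: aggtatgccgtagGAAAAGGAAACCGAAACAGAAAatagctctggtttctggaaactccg
Ifit1, chr19:34640779-34640838, plus strand: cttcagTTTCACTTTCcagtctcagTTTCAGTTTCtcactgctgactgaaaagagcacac
Gbp2, chr3:142620579-142620638, plus strand: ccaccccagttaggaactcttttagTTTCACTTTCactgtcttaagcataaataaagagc
Gbp7, chr3:142530258-142530317, plus strand: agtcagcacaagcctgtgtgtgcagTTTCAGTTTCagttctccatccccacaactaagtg
Irgm1, chr11:48871421-48871480, minus strand: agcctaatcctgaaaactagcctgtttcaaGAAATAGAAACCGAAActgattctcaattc
Bases shared by overlapping matches are printed once, so Isg15 shows 1 long run for its 3 matches. Antigen presentation genes did not follow: of 21 none was higher and 1, H2-Q4, was lower (25.5 to 7.78 CPM), or 0 and 3 with total counts.

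Disease-associated microglia genes had 10 of 28 members lower and 2 higher (median −0.32; 11 and 1 with total counts), and homeostatic microglia genes 5 of 19 lower and 2 higher (median −0.46; 8 and 2 with total counts). Trem2, a lipid receptor of microglia, went from 227 to 91.7 CPM (−1.31, interval −1.40 to −1.22), and its adaptor Tyrobp from 2.73 to 0.584 CPM. The apoptotic cell receptors Mertk and Axl went from 28.2 to 8.69 CPM and from 2.54 to 1.04 CPM, and the complement receptor subunit Itgax from 289.6 to 132 CPM. Cathepsin Z (Ctsz) was the main exception, from 1115 to 3058 CPM (1.46). Of 25 Fc and phagocytic receptors 7 were lower and 4 higher (7 and 1 with total counts). Trem1, which amplifies inflammatory signals, was higher (5.51 to 28.1 CPM, 2.35), as was Fcgr1 (1.11). In the lysosome 4 of 51 genes were lower and 2 higher (7 and 2 with total counts), a share of lower genes close to the 6.46% over all genes, with cathepsin F (Ctsf) at −2.17 and Tfeb, a regulator of lysosome genes, at −1.23. The scavenger receptor Msr1 was higher (36.9 to 209.6 CPM) and the mannose receptor Mrc1 lower (10.7 to 3.18 CPM). Other lower genes included Hdac9, a histone deacetylase (62.8 to 13.6 CPM, −2.21), Mxd4, a partner of MAX that opposes MYC (23.9 to 5.06 CPM), Rasgrp3, an activator of RAS (79.2 to 16.6 CPM), and Serpinb1a, an inhibitor of neutrophil proteases (202 to 57.2 CPM).

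The lowest protein-coding genes rested on few reads at 12 h: AI481877 (2.48 to 0.0649 CPM), Foxj1, a factor of ciliated cells (2.12 to 0.0649 CPM), and Ankrd13d (4.79 to 0.195 CPM). Better measured were annotated olfactory receptors in a block of chromosome 17. Olfactory receptors are odour sensors of the nose, and their gene clusters can be transcribed in other cells. From 37297556 to 37627199 in GRCm38, 7 neighbouring compared genes were called lower, with log2 ratios from −3.30 to −2.13. Olfr112 went from 109 to 11.2 CPM, Olfr113 from 105 to 21 CPM, Olfr116 from 73.1 to 7.39 CPM and Olfr111 from 31.7 to 7.26 CPM. A neighbouring set on the same chromosome had the opposite direction, with Olfr129 from 4.72 to 33.6 CPM, Olfr130 from 0.363 to 3.11 CPM and Olfr131 from 1.27 to 2.85 CPM. Copies in this family resemble each other, so the split of reads between them is uncertain.

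Tubulins and intermediate filaments had 8 of 18 members higher and 1 lower (median 0.92; 3 and 1 with total counts), with Tubb6 from 137 to 434 CPM and Tuba1a from 29.4 to 115 CPM (uncertain). Stmn1, which takes microtubules apart, was the lower one (21.3 to 8.50 CPM). Among 44 actin and SRF target genes 7 were higher and 1 lower (4 and 1 with total counts): Actb went from 226 to 802 CPM and the actin-binding protein gene Marcks from 13.1 to 64.0 CPM, while gelsolin (Gsn) fell from 14.8 to 5.19 CPM. Plexin A1 and neuropilin 2, guidance receptors, were higher (Plxna1 1.53, Nrp2 1.29). The semaphorin Sema4g was lower (19.8 to 2.59 CPM) and the netrin Ntng2 57.7-fold higher (0.666 to 38.5 CPM). Several machinery lists held few or no calls. No gene was called among 72 cytosolic ribosomal proteins (median −0.07), and Rpl3 was at 474 and 448 CPM. Chromatin modifiers had 0 of 61 higher and 3 lower, splicing factors 0 of 63 higher and 1 lower, nuclear pore and export genes 1 of 47 higher, and mitosis genes 1 of 44 higher and 1 lower. These shares lie under the 7.86% and 6.46% of all genes. Among protein-coding genes alone the shares were 7.19% and 4.83%, and the 4.92% lower of chromatin modifiers did not lie under the latter. Protein-coding genes with a mean of both levels of 20 to 50 CPM were called lower in 2.11% of cases. With total counts mitosis genes had 0 higher and 4 lower, nuclear pore and export genes 0 and 1 and splicing factors 0 and 2. DNA replication genes had 5 of 43 higher and none lower (1 and 1 with total counts), with Rrm2, a subunit of ribonucleotide reductase, at 1.37. Gapdh was at 127 and 185 CPM (0.54).

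Short noncoding RNAs were called in both directions, in shares that differed between annotated classes. Of 10897 protein-coding genes 7.19% were called higher and 4.83% lower. Small Cajal body RNAs, which guide the modification of spliceosomal RNAs, had 10 of 21 higher and 2 lower, and small nucleolar RNAs 49 of 243 higher (20.2%) and 22 lower (9.05%). Spliceosomal snRNAs had 22 of 198 higher and 32 lower, microRNA genes 15 of 198 higher and 29 lower, and ribosomal RNAs 1 of 37 higher and 9 lower. Median levels at 0 h ran from 2.94 to 4.24 CPM in these short classes, beside 21.1 CPM for protein-coding genes. The list of small nucleolar, Cajal body and spliceosomal RNAs as a whole had 81 of 462 higher and 56 lower. With total counts it had 66 and 83, and with TPM 61 and 88. Of the list's 120 members with a mean count of at least 50, 53 were higher and 7 lower. The part of level in these shares was not tested. Rnu12, which encodes U12 of the minor spliceosome, went from 26.1 to 559 CPM (4.42), Snord118, or U8, from 27.5 to 129 CPM and Snord13 from 4.79 to 80.9 CPM. Rn7sk, the 7SK RNA that holds the elongation factor P-TEFb inactive, went from 1530.2 to 4129.9 CPM (1.43). The Y RNAs Rny1 and Rny3 went from 0.606 to 12.8 CPM and from 2.30 to 42.7 CPM. In the cytoplasm, scaled on its own, these Y RNAs went from 9.64 to 354 CPM and from 49.5 to 1165 CPM. The 1 higher ribosomal RNA entry, CT010467.1 (uncertain), went from 299 to 1938 CPM, and the mitochondrial 12S ribosomal RNA mt-Rnr1 from 26.1 to 144 CPM. It was the 1 higher of 16 mitochondrial genes, where mt-Nd3, mt-Th and mt-Tl2 were lower (1 higher and 6 lower with total counts). Mitochondrial genes as a whole took 0.641% of counts at 0 h and 0.518% at 12 h. The snRNA entry Gm26444 had 0.121 CPM at 0 h, 255 at 12 h and 0.477 at 24 h. How this gene was spread over the 3 libraries behind the 12 h mean cannot be seen in the deposited mean. The part of RNA recovery in the levels of these short RNAs was not tested.

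**Figure D3:**
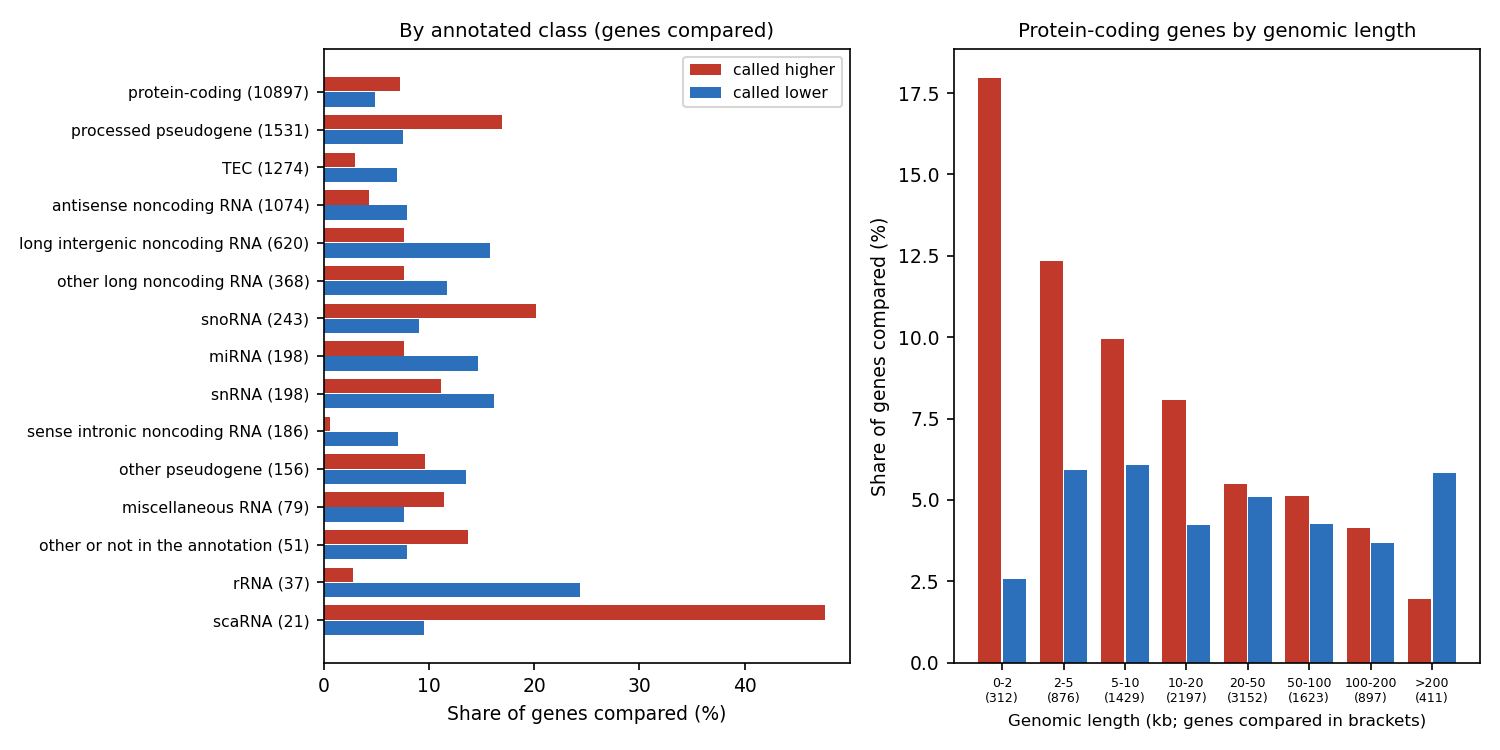
Left, the share of compared genes called higher (red) and lower (blue) by annotated class, with the number compared in brackets; TEC marks models still to be supported by experiment. Right, the same shares for protein-coding genes by genomic length in kb; the share called higher runs from 17.9% at up to 2 kb to 1.95% above 200 kb, while the share called lower is 2.56% at up to 2 kb and between 3.68% and 6.09% in the longer classes.

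Long intergenic RNAs had 47 of 620 called higher (7.58%) and 98 lower (15.8%), and antisense RNAs 46 of 1074 higher and 85 lower. Malat1, Neat1 and Xist, the abundant RNAs of nuclear speckles, paraspeckles and the inactive X, had log2 ratios of 0.15, 0.76 and −0.33 and were not called. The highest were Gm6093, with no read at 0 h and 35.0 CPM at 12 h (at least 193-fold), and 6530402F18Rik, from 5.21 to 222 CPM (5.41). Gm14023, whose span overlaps that of Il1a, was at 4.73. Mir155hg and Mir22hg, hosts of the microRNAs miR-155 and miR-22, went from 6.60 to 19.8 CPM and from 40.9 to 132 CPM. The lincRNA Gm36211 lost the most CPM among noncoding genes called lower, from 252 to 76.9 CPM. Without a stated strand setting, reads of an antisense gene and its partner cannot be told apart. Processed pseudogenes, which are copies of mature mRNAs, had 259 of 1531 called higher (16.9%) and 115 lower (7.51%), and their reads may belong to the parent gene, so these calls are uncertain.

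The called protein-coding genes also differed from the rest in their build. Genes up to 2 kb long from start to end were called higher in 17.9% of cases (56 of 312) and lower in 2.56%. The share called higher was smaller in each longer class, 9.94% at 5 to 10 kb, 5.49% at 20 to 50 kb and 1.95% above 200 kb (8 of 411), where 5.84% were lower. By exons, 15.6% of single-exon genes and 17.6% of genes with 2 exons were higher, beside 3.85% of those with over 20. The median level at 0 h also differed, with 7.45 CPM for genes up to 2 kb and 36.8 CPM above 200 kb, and the part of level in these shares was not tested.

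Called genes often lay beside others with the same direction. Within 100 kb, 32.2% of the higher protein-coding genes without large exon overlap had a higher neighbour, beside 19.8% of all such genes. Of the lower genes 21.7% had a lower neighbour, beside 12.2% of all. Several runs of neighbouring compared genes were higher throughout on chromosome 11. One was Gm17268, Ccl2, Ccl7 and Zfp830, and another Ccl3, Ccl4, Wfdc17 and Wfdc18, of which Wfdc17 went from 37.4 to 112 CPM. A further run was the Schlafen genes Slfn5, Slfn9, Slfn2, Slfn1 and Slfn4 (82951349 to 83190216), which are interferon-inducible regulators of immune cell growth. Slfn2 went from 109 to 387 CPM and Slfn4 from 3.39 to 16.9 CPM. Csf3 itself stood between Psmd3 (1.27) and Med24 (1.28), a subunit of Mediator, both higher. On chromosome 17 Tnf and Lta stood beside Lst1 (1.66). On chromosome 19 the run was the Ifit genes, on chromosome 7 Trim30a (1.18) with Trim30c, Trim30d and Trim12c, and on chromosome 5 the paired receptors Pilra (14.7 to 58.2 CPM), Pilrb1 and Pilrb2. Many of these runs are families of similar copies, and reads shared between copies were not separated here. The runs were picked for display after their values were seen.

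Noncoding models inside introns were set beside their hosts. Single-exon models that lay in an intron of 1 protein-coding gene, on its strand and without shared exon bases, were taken first. In the 24 cases with a higher host 8 of the models were higher and none lower (33.3% higher, median log2 ratio 0.64). In the 22 with a lower host 9 were lower and none higher (median −0.96). With an uncalled host 4 of 757 were higher and 23 lower (median −0.14). Gm37498, within Slc7a11, went from 56.8 to 324 CPM (2.51, beside 2.73 for the host), and Gm43430, within Nfkb1, from 36.3 to 105 CPM (1.53, beside 1.35). Slc16a1, a lactate transporter at 1.08, was an exception, since its intronic models Gm43581 and Gm43585 were at −0.32 and −0.11. Models on the opposite strand were few: 4 of 5 with a higher host were higher and 3 of 5 with a lower host were lower. Several models share a host, so they are not independent, and whether their reads come from unspliced RNA of the host was not tested. Of small nucleolar RNAs in introns 2 of 8 with a higher host were higher and none lower, 1 of 2 with a lower host was lower and none higher, and of 119 with an uncalled host 30 were higher (25.2%) and 6 lower.

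The cytoplasmic fraction offered a readout that shares no library with the nuclear one. It had the same treatment and time groups, so treatment and time in culture cannot be told apart there either. Both fractions may come from the same cultures, so one is not an independent repeat of the other. Scaled on its own, it had 11351 genes compared, of which 10.5% were called higher and 9.7% lower at 12 h, and 10694 genes were compared in both fractions. Of 1045 nuclear higher genes among these, 464 were also higher in the cytoplasm (44.4% of the nuclear and 47.3% of the cytoplasmic list), 5 were lower and 576 were not called. Of 331 nuclear lower genes 215 were lower in the cytoplasm (65.0% of the nuclear and 21.3% of the cytoplasmic list) and 5 were higher. Across 10687 genes with reads in all 4 columns, which share 4 group means and are not independent, the log2 ratios had a Pearson r of 0.65 and a Spearman rho of 0.53. The cytoplasmic log2 ratio was larger for Csf3 (9.27 beside 7.49), Il1b (8.91 beside 6.82), Tnf (5.96 beside 2.80) and Zc3h12a (3.56 beside 1.92). It was smaller for Ntng2 (2.67 beside 5.85), Plxna1 (0.25 beside 1.53) and Scd2, a fatty acid desaturase (−0.19 beside 1.01). Ntng2 shares exonic bases with 6530402F18Rik, so its reads in either fraction may belong to that gene. For the ER chaperones P4hb (0.08 beside 1.22) and Hyou1 (0.23 beside 1.27) the cytoplasmic value lay under 2-fold. Among microglial genes Trem2 was lower in both (−2.15 in the cytoplasm), as was Igf1 (−2.69). A further 287 nuclear higher and 764 nuclear lower genes were too low for the comparison in the cytoplasm. Ebag9, a regulator of vesicle release, was one of the 10 genes with opposite calls, at −1.90 in the nucleus and 1.59 in the cytoplasm. Another was Srp54b, of the signal recognition particle, at 1.57 and −1.88. These examples were chosen after their values were seen, and differences between the fractions' ratios were not tested.

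**Figure D4:**
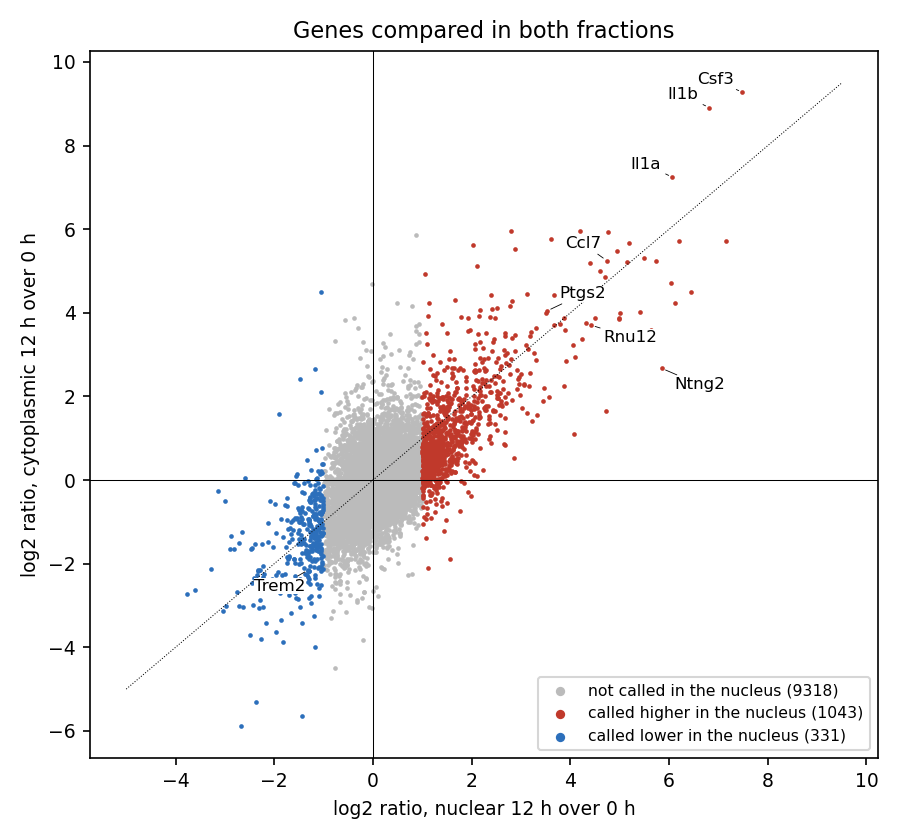
Log2 ratios of 12 h over 0 h in the nucleus (horizontal axis) and the cytoplasm (vertical axis) for genes compared in both and with a read in the nucleus at 0 h, coloured by the nuclear call. The dotted line marks equal ratios; Csf3 lies above it at 7.49 and 9.27, and Ntng2 below it at 5.85 and 2.67.

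The nuclear group at 24 h shares the 0 h group with this comparison, so its levels are given side by side. Several cytokine genes stood lower at 24 h than at 12 h but above 0 h: Il1b had 0.909, 102 and 24.9 CPM at 0, 12 and 24 h, Il1a 3.88, 259.9 and 92.8, Il6 1.45, 65.5 and 23.4 and Csf3 5.63, 1011 and 438. Tnf (28.3 CPM at 12 h and 29.9 at 24 h) and Lta (15.4 and 17.7) did not. Mmp13 had 22 CPM at 24 h and Gbp2 3.00, close to its 0 h level. Other genes held their 12 h level: Hmox1 had 629 CPM at 24 h, Ccl3 2399, Nfkbia 149 and Cpd 2404. Nos2 (74.1 CPM), Rnu12 (906) and Rn7sk (5797) stood higher still. Of the lower genes, Olfr112 (8.79), Igf1 (16.4) and Hdac9 (14) stayed near or under their 12 h level, while Bcl6 (61.3), Mertk (17.6) and Abcd2 (30.5) lay between both.

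**Figure D5:**
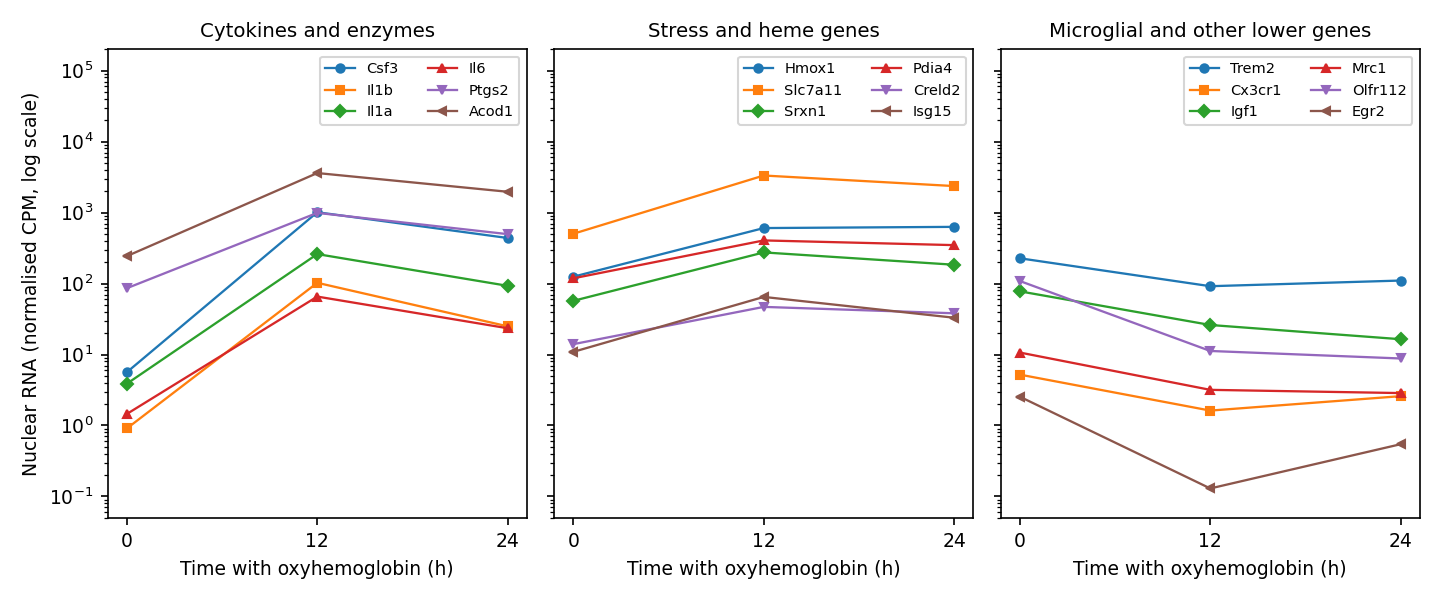
Nuclear levels of 18 genes at 0, 12 and 24 h of oxyhemoglobin, in normalised CPM on a log scale, each point the mean of 3 libraries without error. Il1b runs from 0.909 to 102 and 24.9 CPM, Hmox1 from 125 to 605 and 629, and Olfr112 from 109 to 11.2 and 8.79.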

How the data were processed

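RNA of nuclear and cytoplasmic fractions of BV2 cells was sequenced in 3 libraries for each of 6 groups, made with a transposase-based kit per the labels' protocols. Per the submitters' processing notes, the tools were HISAT2 2.2.0, featureCounts and DESeq2 and the build GRCm38. Neither strand setting nor annotation release is stated in the sources at hand. The authors deposited a count table with 1 column per group and a file of TPM values per group. Each deposited count times 3 was whole within 0.001, so each column is the mean of 3 libraries, and no per-library value, error or test was possible. The number of columns per sample that were not used was 0.

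The deposited mean counts were multiplied by 3 to obtain summed reads, 14652566 to 16031875 per nuclear group. Nuclear columns were put on 1 scale with trimmed means of M-values (30% of log ratios and 5% of sums trimmed) over the 3 nuclear columns, with factors of 1.13, 0.970 and 0.915, and the cytoplasmic columns on their own. Intervals are exact 95% Clopper-Pearson intervals on the 2 groups' reads, and a group without reads was set to a floor of 3 reads (0.182 CPM at 0 h after scaling). Gene classes, positions and overlaps were matched by ID to GENCODE M21 on GRCm38 for 55227 of the 55487 genes, and promoters by symbol to RefSeq on GRCm38.p6 for 9459 compared genes. Analyses ran in Python 3.11.15 with scipy 1.17.1 for intervals, pandas 2.3.3 and numpy 2.4.6 for tables and matplotlib 3.10.9 for plots, and the size rule was tested on simulated counts.

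Genes were named by these rules: the 20 highest and 20 lowest called log2 ratios that averaged 5 CPM or more and had a plain symbol, the 12 largest gains and losses in CPM, up to 6 members of each list by size with at least 1 CPM, the 8 highest and lowest long noncoding RNAs and pseudogenes, and a fixed set that included Hmox1, Tnf and Gapdh. Genes named outside these rules, such as Arg1, Calr, Ccl4, P4hb, Hyou1, Med24, Lst1, Foxj1, Slfn2, Pilra, Fcgr1, Ebag9 and the intronic models, were chosen after their values were seen. The members, lists and rules were chosen with earlier results of these data known. Some items are not reported here.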

Additional observations from a re-analysis of the deposited data

How the results depend on the processing

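No paired analysis was possible because each deposited column is the mean of 3 libraries, and leaving out a library was not run for the same reason. With median-of-ratios scaling, or with the trimmed mean of M-values over 0 h and 12 h only, 1332 genes were higher and 1095 lower, as in the text. Total-count scaling gave 846 higher and 1779 lower, upper-quartile scaling 1053 and 1405, and the deposited TPM on the log2(TPM + 1) scale 512 and 1086. A minimum mean count of 1 gave 1902 and 1822 of 24942 genes, and a minimum of 50 gave 787 and 323 of 10508. A threshold of 1.5-fold gave 2961 and 2553 genes, 4-fold 288 and 161, and an interval excluding 2-fold 683 and 317. Protein-coding genes alone gave 784 and 526, as fewer genes were compared. Genes that share no exon base gave 996 and 789. With an assumed coefficient of variation of 0.2 between libraries, which was not measured, the numbers were 1330 and 1093. Each call already differed at least 2-fold, so this setting could move few of them and says little about differences between libraries. No call turned its direction under any of these settings. Of 360 called genes chosen by the naming rules, 134 lay under 2-fold with TPM, 47 with total counts and 24 with the upper quartile, and none turned. Of 80 lists, the 24 with a median of at least 0.4 in size kept its sign, while smaller medians, such as that of the heme genes, did not all do so. Depth limits genes at a few reads, where the intervals span several log2 units.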

Other observations

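Gene groups outside the lines above also held calls. Zinc, copper and metallothionein genes had 4 of 20 members higher and none lower (1 higher with total counts), with Slc39a4, an importer, at the top (1.09 to 4.67 CPM, log2 ratio 2.10). Among receptors, Il1rl2, the receptor of interleukin-36, went from 0.182 to 2.14 CPM (3.56, interval 1.89 to 5.91), and the interleukin-4 receptor Il4ra from 8.18 to 25.9 CPM, while the receptor of Csf3, Csf3r, was lower (6.48 to 2.40 CPM, −1.43). Slamf8, a receptor of activated macrophages, was at 0.727 and 3.18 CPM and the transglutaminase Tgm2 at 2.18 and 12.5 CPM. In the circadian clock 3 of 19 genes were called higher, among them Cry1 (1.15) and Nr1d1 (1.02), and the clock output gene Dbp was lower (5.75 to 2.59 CPM). With total-count scaling both Cry1 and Nr1d1 lay under 2-fold, and the list had 1 member higher and 3 lower. Among glucose genes the intracellular transporter Slc2a8 was lower (8.66 to 1.69 CPM, −2.36) and the lactate transporter Slc16a1 higher (210.5 to 446 CPM).

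Some genes with large ratios belonged to none of the lists. 6530402F18Rik and Gm19026, a pseudogene, stood at 3.27 and 103 CPM for the latter and at 5.21 and 222 CPM for the former. Bc1, a neuronal cytoplasmic RNA with many genomic copies, rested on 0.0606 CPM at 0 h and had 5.25 at 12 h. Its copies make the assignment of its reads uncertain. The lower genes Gpr157 (74.5 to 11.4 CPM) and Fbxo32, a ubiquitin ligase of muscle wasting (23.1 to 4.6 CPM), had log2 ratios of −2.71 and −2.33. Tmem119, often used as a marker of homeostatic microglia, went against most of its list, from 0.909 to 3.83 CPM (log2 ratio 2.07, interval 1.24 to 3.00). Cpa3, a mast cell protease on the list of other leukocyte markers, went from 3.03 to 0.454 CPM.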
